A study of Mus musculus with 12 samples.

Results

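Solute carrier genes (symbols that begin with Slc and a family number) transcribed in growing mouse oocytes were followed through growth and meiotic maturation in oocytes with and without the RNA-binding proteins ZAR1 and ZAR2. A gene was taken as a member when its mean over the 2 WT growing libraries was at least 5 FPKM, where FPKM is a level corrected for transcript length and sequencing depth, here also multiplied by a spike-in factor. This rule kept 88 of 355 solute carrier genes in a table of 23230 genes, and 84 of the 88 belong to families of transporters or their subunits. The other 4 (Slc7a6os, Slc9a3r1, Slc9a3r2 and Slc4a1ap) carry the symbol of a neighbouring or partner gene and are not transporters themselves. Because the WT growing libraries chose the members, their levels in these libraries and every comparison with them are given as a description, with no test.

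Solute carriers are the membrane proteins through which cells take up, release and move amino acids, sugars, nucleotides, vitamins, metals and inorganic ions, mostly down a gradient or coupled to sodium, protons or a counter-substrate. A growing oocyte receives part of its amino acids and its energy substrates through gap junctions from the surrounding granulosa cells, uses pyruvate rather than glucose, and takes up glycine, taurine and zinc through carriers of its own. Within the cell, the large SLC25 family carries metabolites across the inner mitochondrial membrane, and the SLC35 family brings nucleotide sugars and related donors into the endoplasmic reticulum and Golgi for glycosylation and sulfation. Transcription stops in the fully grown oocyte, so that transcript levels from then on depend on storage, translation and decay.

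The data were 12 RNA-seq libraries of 10 oocytes each, made by Smart-seq2, with 2 libraries in each of 6 groups. The groups were WT and Zar1/2-null oocytes of a C57BL6/ICR hybrid strain, collected while growing, at the fully grown germinal vesicle (GV) stage 44 h after PMSG, or as ovulated oocytes labelled MII 16 h after hCG. The labels give 13.5 days as the age of the females for growing oocytes (12 days in the methods) and 21 days for GV oocytes. Both null alleles are small CRISPR/Cas9 deletions near the start of the coding sequence, carried in every cell of the females, so that the granulosa cells lacked the genes too, and the group labelled MII was defined by the time of collection from the oviduct. The study describes ovulated Zar1/2-null oocytes as held in meiosis I, so that the libraries labelled Zar1/2-null MII need not hold metaphase II oocytes. In every MII comparison of these libraries genotype and meiotic stage cannot be told apart. Apart from these libraries, the study held WT oocytes in meiosis I with nocodazole. By RT-qPCR it found the degradation of selected transcripts unaffected. Whether that holds for solute carriers was not tested here. In libraries of pooled oocytes, fewer oocytes with a transcript and less transcript per oocyte cannot be told apart.

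The labels were checked before the members were read. Zar1l, the symbol of Zar2, measured 639 and 644 FPKM in WT and 17.5 and 13.2 FPKM in Zar1/2-null growing oocytes, and 533 and 504 FPKM in WT and 20.9 and 19.6 FPKM in Zar1/2-null GV oocytes, whereas Zar1 transcript does not report on its small deletion. In MII oocytes Zar1l was down to 3.13 and 4.72 FPKM in WT itself. All 10 oocyte markers listed were at 1 FPKM or more in 5 of the 6 groups and 9 of 10 in WT MII, with summed levels of 1133 to 14818 FPKM. Of 12 granulosa and cumulus markers, 1 or 2 reached 1 FPKM in a group, with Amh and Foxl2 at or near 0. Their sum was 20.8 to 24.3 FPKM in WT growing and 5.67 to 10.4 FPKM in Zar1/2-null growing libraries, most of it from Cyp19a1, and it was 12.6 to 14.3 against 9.37 to 11.3 FPKM at GV and 3.97 to 4.05 against 6.08 to 7.30 FPKM at MII. Single granulosa transcripts went both ways at GV. Fshr measured 1.16 and 1.22 FPKM in WT and 0.537 and 0.491 FPKM in Zar1/2-null. Inha gave 0.4098 and 0.512 FPKM in WT and 1.99 and 1.73 FPKM in Zar1/2-null. The gap junction gene Gja1, which was not on the marker list, gave 0.229 and 0.141 FPKM in WT and 1.47 and 1.33 FPKM in Zar1/2-null. In growing oocytes Gja1 was lower in the null, with 2.45 and 1.27 FPKM in WT and 0.496 and 0.27 FPKM in Zar1/2-null. Markers of theca and stroma, immune cells and oviduct epithelium summed to 0.143 to 3.07 FPKM, with at most 1 gene of a list at 1 FPKM. The part of other cells in the results was not tested.

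In WT growing oocytes the members ranged from 5.12 to 252 FPKM, with a median of 17.3 FPKM, 56 members at 10 FPKM or more and 6 at 100 FPKM or more. The 10 highest members made up 45.8% of the summed level. First came Slc45a3, a member of a family of sugar transporters, at 215 and 289 FPKM. All 3 ADP/ATP carriers of the inner mitochondrial membrane measured here stood high: Slc25a5 at 213 and 220 FPKM, the germ-cell form Slc25a31 at 168 and 152 FPKM and Slc25a4 at 108 and 108 FPKM. Slc25a17, an SLC25 protein of the peroxisome, measured 129 and 118 FPKM, and the mitochondrial phosphate carrier Slc25a3 87.8 and 89.9 FPKM. Of the zinc carriers, Slc30a3, which loads zinc into vesicles, stood at 167 and 206 FPKM. The importers Slc39a10 and Slc39a6 measured 84.2 and 77.7 FPKM and 76.1 and 79.5 FPKM. Slc23a3, an orphan relative of the ascorbate transporters, completed the 10 with 88.3 and 81.3 FPKM. Slc45a3 and Slc25a5 overlapped between libraries, as did Slc30a3 and Slc25a31, so that the order within each of these pairs is not fixed. Slc25a3, Slc23a3, Slc39a10 and Slc39a6 each overlapped the next in this order too. Slc12a8, the next gene below the 10 (79.6 and 72.4 FPKM), overlapped Slc39a6, so that the tenth place is not fixed either.

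By role, the members were 23 SLC25 carriers, 14 carriers of amino acids and peptides, 12 of metals, 12 of the endoplasmic reticulum and Golgi, 11 of inorganic ions and pH, 6 of vitamins, nucleosides and lipids, 5 of sugars and carboxylates, 1 of organic ions (Slc22a23) and the 4 that are not transporters. The SLC25 carriers had the highest summed level, 1078 and 1096 FPKM of 2911 and 3106 FPKM over all members in the WT growing libraries. The metal carriers followed with 464 and 506 FPKM. Apart from the 4 that are not transporters, roles were given by family number alone. A member can therefore carry something else, as does the serotonin transporter Slc6a4, which is counted with the amino acid carriers.

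**Figure D1:**
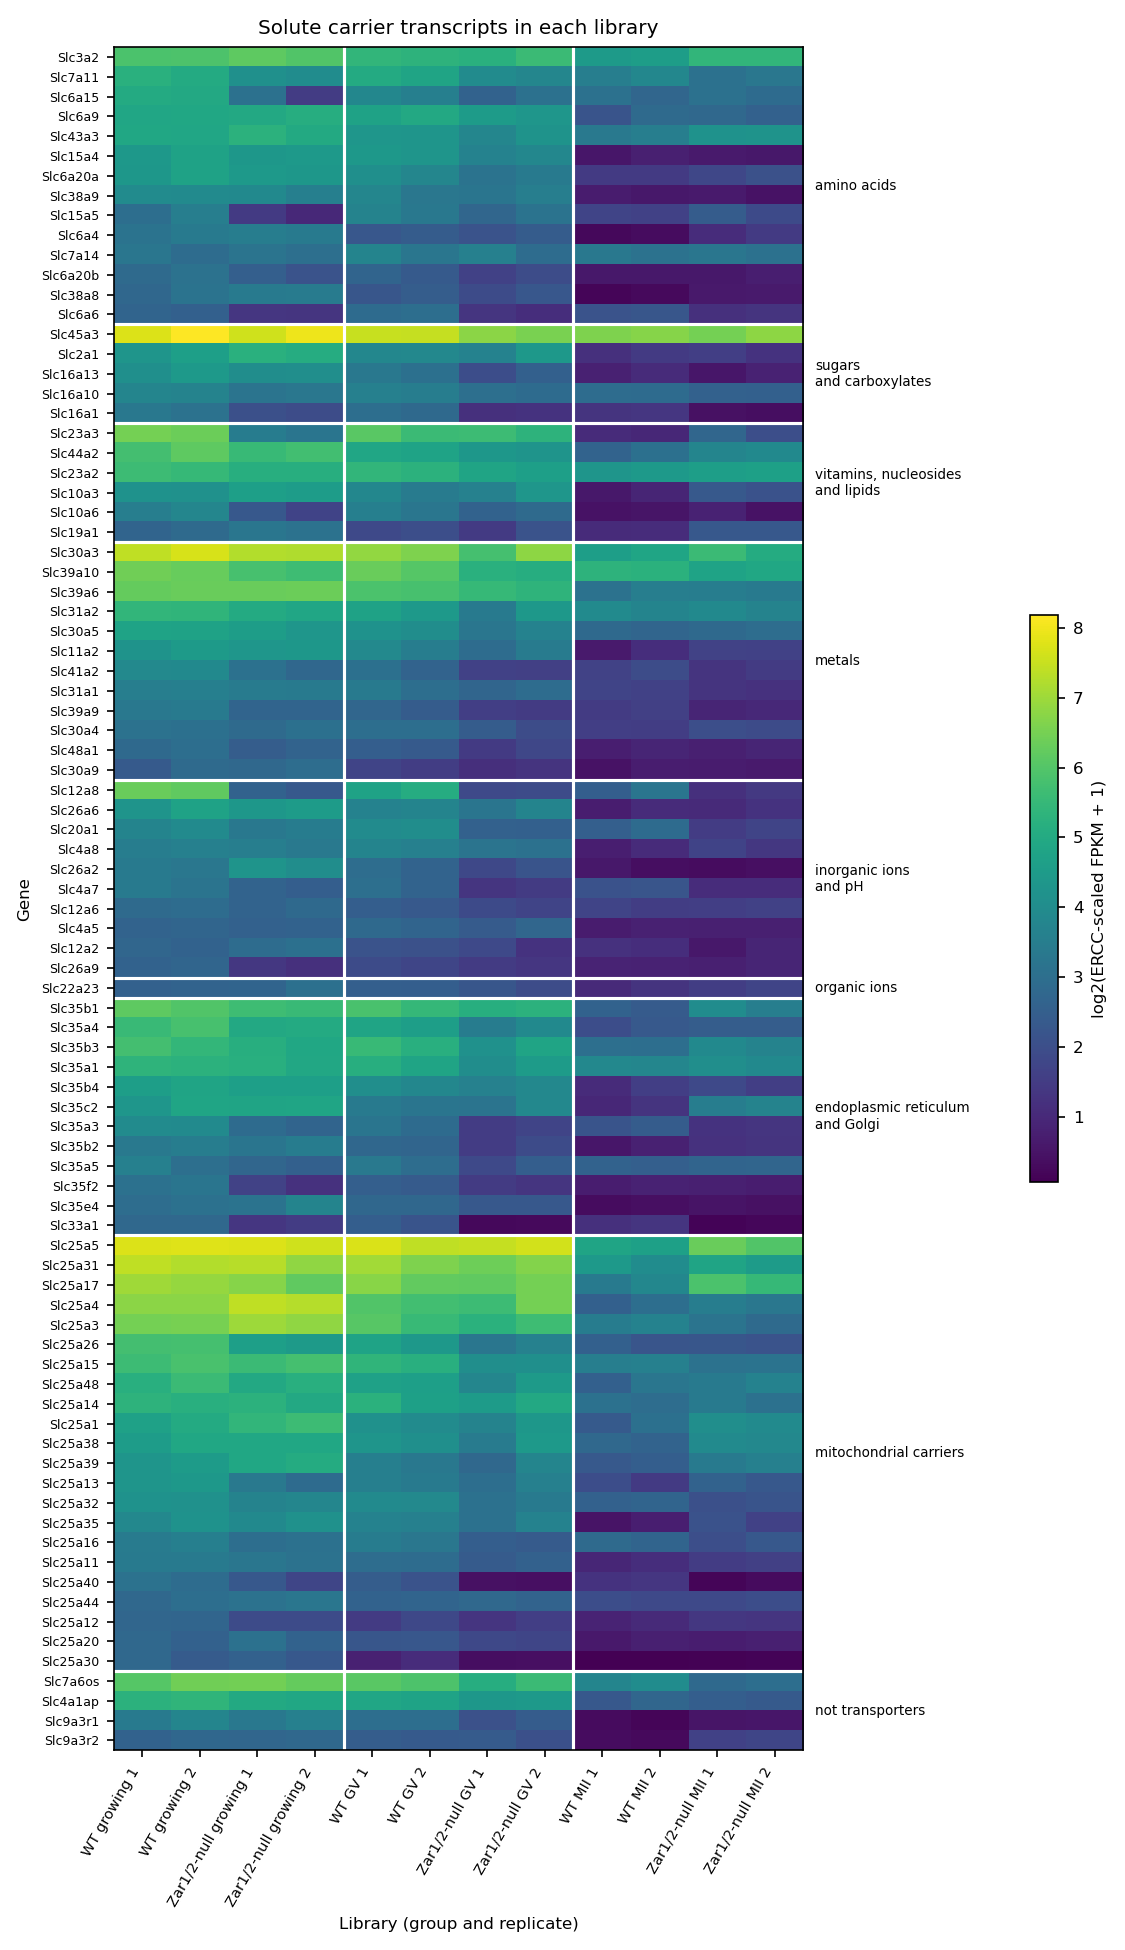
Heat map of log2(ERCC-scaled FPKM + 1) for the 88 members (rows, with 2 left out, grouped by role and sorted by the WT growing mean) in each of the 12 libraries (columns, 2 for each genotype and stage; white lines separate the stages and roles). Colour darkens from the growing to the MII libraries in nearly every row under the deposited scaling, the summed level falling from 2911 and 3106 FPKM in WT growing to 522 and 562 FPKM in WT MII libraries, and Slc45a3 is the brightest row.

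Of 33 carriers listed for their known roles in oocytes or other cells, 15 were members and 18 lay under 5 FPKM. The amino acid transporters present were Slc6a9, the glycine transporter that oocytes use for volume control, at 27.9 and 29.1 FPKM, Slc6a20a, a proline and betaine transporter, at 19.4 and 25.7 FPKM, the taurine transporter Slc6a6 at 5.34 and 4.901 FPKM and the heavy chain Slc3a2 at 58.2 and 59.5 FPKM. Slc3a2 pairs with several light chains, of which the cystine and glutamate exchanger Slc7a11 was high at 35.8 and 31.7 FPKM, while Slc7a5 measured 1.51 and 1.36 FPKM and Slc7a6 1.19 and 0.856 FPKM. By contrast, 12 of the 18 were under 1 FPKM in every library, among them the neutral amino acid transporters Slc38a1, Slc38a2, Slc1a4 and Slc1a5, the glucose transporter Slc2a3 and the lactate exporter Slc16a3. The glucose transporter Slc2a1 was a member at 18.8 and 24.1 FPKM, and the pyruvate and lactate carrier Slc16a1 at 8.98 and 7.69 FPKM. The sodium, potassium and chloride cotransporter Slc12a2 (5.74 and 5.13 FPKM) lay near the bottom of the members. Just inside 5 FPKM were Slc26a9 (mean 5.37), Slc30a9 (5.25), Slc25a30 (5.18), Slc22a23 (5.14) and Slc6a6 (5.12 FPKM), and just outside were Slc37a3 (4.83), Slc24a3 (4.50), Slc7a2 (4.46), Slc44a1 (4.34) and Slc25a33 (4.17 FPKM). Single libraries of Slc30a9, Slc25a30, Slc6a6 and Slc37a3 lay on the other side of 5 FPKM.

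In growing oocytes a few carriers were far lower in Zar1/2-null than in WT, in values that chose the members and are given without a test. Slc12a8, a divergent member of the cation and chloride cotransporter family (mm9 chromosome 16, 33517414 to 33664221), measured 79.6 and 72.4 FPKM in WT and 5.09 and 4.05 FPKM in Zar1/2-null, a 16.6-fold difference of means. Slc23a3 (chromosome 1, 75122117 to 75130464) measured 88.3 and 81.3 FPKM in WT and 10.2 and 8.22 FPKM in Zar1/2-null, a 9.20-fold difference. The neutral amino acid transporter Slc6a15 stood at 31.5 and 30.2 FPKM in WT and 7.57 and 1.86 FPKM in Zar1/2-null, with the null libraries far apart from each other. In all 3 genes both null libraries lay below both WT libraries. In all, 9 members were more than 3-fold lower in the null (the others being Slc10a6, Slc15a5, Slc35f2, Slc33a1, Slc26a9 and Slc6a6) against 3.54% of all 11502 genes tested and 4.58% of the 7098 genes with the same floor of 5 FPKM. There were 0 more than 3-fold higher, against 0.982% and 0.254%. Among other members above 10 FPKM, Slc10a6, of the bile acid transporter family, measured 10.7 and 12.7 FPKM in WT and 3.91 and 2.28 FPKM in Zar1/2-null. Slc25a13, an aspartate and glutamate carrier of mitochondria, measured 18.5 and 20.1 FPKM in WT and 9.28 and 6.48 FPKM in Zar1/2-null. In the opposite direction the ratios were all under 2. The sulfate transporter Slc26a2 had the highest, 1.86, with 9.41 and 8.81 FPKM in WT and 18.3 and 15.6 FPKM in Zar1/2-null. Slc2a1 stood at 18.8 and 24.1 FPKM in WT and 36.6 and 33.1 FPKM in Zar1/2-null. Both genes had null libraries well above the WT ones, as had 3 SLC25 carriers. The citrate carrier Slc25a1 measured 25.2 and 31.7 FPKM in WT and 41.4 and 48.05 FPKM in Zar1/2-null. Slc25a39, which carries glutathione, stood at 18.6 and 21.8 FPKM in WT and 29.2 and 32.2 FPKM in Zar1/2-null. For Slc25a4 the values were 108 and 108 FPKM in WT and 169 and 152 FPKM in Zar1/2-null. Both null libraries lay above both WT libraries in 17 members (22.4% of all genes, 16.4% of those with the same floor) and below them in 45 (47.4% and 54.7%). These overlap counts use the deposited scaling alone, which multiplied the null growing libraries by 0.862 and 0.779 and the WT ones by 1.

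From growing to GV oocytes most members were lower with the deposited scaling, in both genotypes. Both GV libraries lay below both growing libraries in 73 members of WT and 74 of Zar1/2-null oocytes, and above them in 3 of each. This scaling multiplied the WT GV libraries by 0.836 and 0.697 and the WT growing ones by 1. The factors were 0.533 and 0.583 for null GV and 0.862 and 0.779 for null growing libraries. Counts with another scaling were not made for this step. Over all genes tested the shares were 59.5% below and 10.2% above in WT and 68.9% and 9.16% in Zar1/2-null, and over genes with the same floor, which like the members were chosen for their level in WT growing oocytes, 67% and 7.33% in WT and 72.3% and 7.02% in Zar1/2-null. The 3 in WT were Slc6a6, Slc20a1 and Slc4a8, and the 3 in the null were Slc23a3, Slc10a6 and Slc15a5. The last 3 were among the 9 that were lowest relative to WT in growing oocytes. Both lists use the same null growing libraries, so that part of this overlap is built in. Slc23a3 in the null went from 10.2 and 8.22 FPKM in growing to 48.95 and 38.9 FPKM in GV oocytes, while in WT it went from 88.3 and 81.3 to 68.4 and 47.3 FPKM.

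At the GV stage the genotypes were compared with limma, and 46 of 88 members (52.3%) fell in Zar1/2-null oocytes and 0 rose (adjusted p under 0.05). Of all genes tested 40.6% were called lower and 2.83% higher, and of the 7098 genes with at least 5 FPKM in WT growing oocytes 44.5% and 1.72%. Both null libraries lay below both WT libraries in 59 members (63.6% of all genes, 67.4% of those with the same floor) and above them in 0 (6.79% and 4.47%). The median log2 difference, null minus WT, was -0.52 over the members and -0.38 over all genes. This shift rested in part on the spike-in: without the ERCC factor 17 members were lower and 5 higher, and with every library set to the same median 12 were lower and 8 higher, with median differences of -0.13 and -0.03 over the members and -0.03 and 0.08 over all genes. More than 3-fold lower were 9 members (4.20% of all genes) and more than 3-fold higher 0 (0.461%). The 12 members that were lower with all 3 scalings (9.21% of all genes were) were Slc12a8, Slc33a1, Slc25a40, Slc6a6, Slc16a1, Slc4a7, Slc35a3, Slc20a1, Slc41a2, Slc25a15, Slc35f2 and Slc39a9. Of the members called higher with another scaling, Slc25a5, Slc25a4, Slc3a2 and Slc10a3 were among those that were so with both. Without the first WT GV library the count of lower members was 28 in place of 46.

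**Figure D2:**
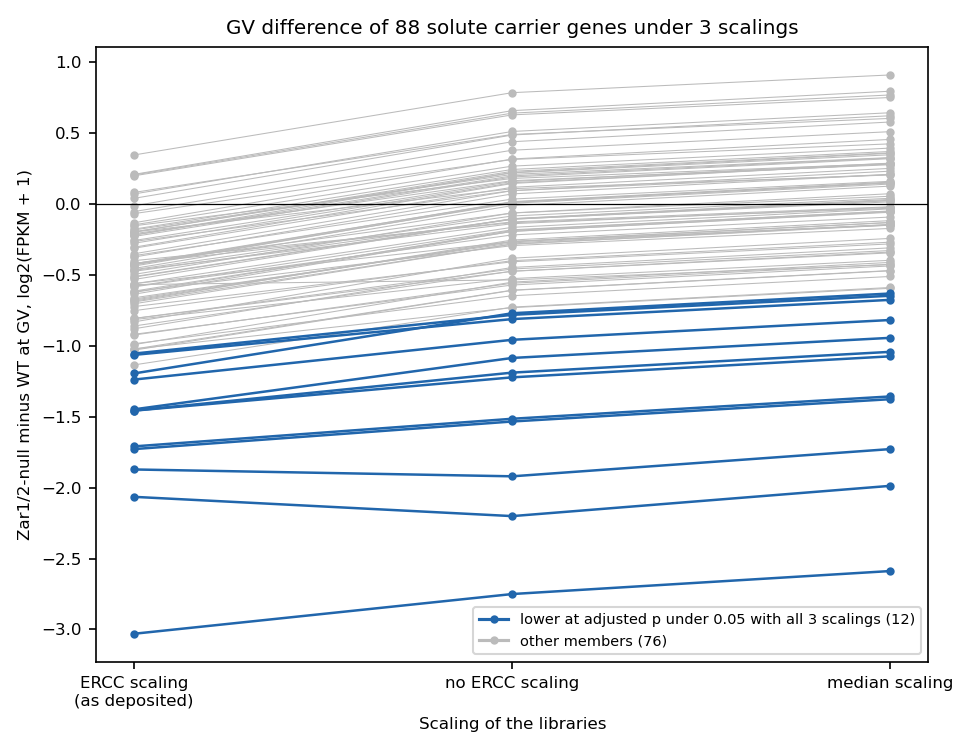
Difference between Zar1/2-null and WT GV oocytes for each of the 88 members (lines and points, log2(FPKM + 1)) with the deposited ERCC scaling, without it, and with median scaling of the libraries. The 12 blue lines, lower at adjusted p under 0.05 with all 3 scalings, stay below 0 throughout, while the grey lines shift upward as a body, the median from -0.52 to -0.13 and -0.03, and many cross 0.

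Among carriers of the plasma membrane, the largest GV difference was that of Slc12a8, at 25.5 and 33.3 FPKM in WT and 2.598 and 2.79 FPKM in Zar1/2-null oocytes (log2 difference -3.03 ± 0.23, adjusted p = 9.1e-06). The taurine transporter Slc6a6 measured 6.54 and 6.8997 FPKM in WT and 1.51 and 1.16 FPKM in Zar1/2-null (-1.73 ± 0.13, adjusted p = 8.8e-06), and the pyruvate and lactate carrier Slc16a1 7.0005 and 6.23 FPKM in WT and 1.28 and 1.37 FPKM in Zar1/2-null (-1.71 ± 0.13, adjusted p = 9.1e-06). Slc20a1, a phosphate importer, stood at 14.9 and 15.3 FPKM in WT and 4.96 and 4.85 FPKM in Zar1/2-null (-1.45 ± 0.16, adjusted p = 9.3e-05). In each of these 4 genes every null library was lower than every WT library by a wide gap. Slc7a11, which imports the cystine used for glutathione, measured 31.4 and 27.1 FPKM in WT and 14.8 and 12.8 FPKM in Zar1/2-null (-1.03 ± 0.16, adjusted p = 0.000515), whereas its heavy chain Slc3a2 gave 41.5 and 39.1 FPKM in WT and 35.9 and 47.8 FPKM in Zar1/2-null with overlapping libraries (0.04 ± 0.16, adjusted p = 0.846). Slc45a3, the member with the highest mean in WT growing oocytes, was lower with the deposited scaling, at 181 and 178 FPKM in WT and 108 and 93.3 FPKM in Zar1/2-null (-0.83 ± 0.19, adjusted p = 0.00581), and did not pass the test with the others.

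Of the 14 amino acid carriers 5 fell at GV (Slc6a6, Slc6a20a, Slc6a20b, Slc7a11 and the lysosomal transporter Slc15a4), 1 of them with all 3 scalings. The shares to set beside each role at GV were 40.6% of all genes tested, and 9.21% with all 3 scalings. The glycine transporter Slc6a9 measured 25.6 and 30.3 FPKM in WT and 22.01 and 18.97 FPKM in Zar1/2-null and did not pass (-0.43 ± 0.21, adjusted p = 0.1196). Of the 5 sugar and carboxylate carriers 4 fell, 1 of them with all 3 scalings, and the 1 that did not was Slc2a1, with 13.01 and 13.5 FPKM in WT and 11.8 and 20.1 FPKM in Zar1/2-null. Of the 11 ion carriers 8 fell, 3 of them with all 3 scalings (Slc12a8, Slc20a1 and the bicarbonate cotransporter Slc4a7, which measured 7.23 and 5.25 FPKM in WT and 1.48 and 1.75 FPKM in Zar1/2-null). Of the 6 vitamin, nucleoside and lipid carriers 3 fell, 0 of them with all 3 scalings, among them Slc44a2, a choline transporter-like protein, and the ascorbate transporter Slc23a2. Slc23a3, so low in growing null oocytes, measured 68.4 and 47.3 FPKM in WT and 48.95 and 38.9 FPKM in Zar1/2-null at GV and did not pass (-0.37 ± 0.24, adjusted p = 0.228).

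Of the 12 metal carriers 7 fell at GV (40.6% of all genes), 2 of them with all 3 scalings (9.21% of all genes). All 3 members of the SLC39 family of zinc importers fell with the deposited scaling. Slc39a10 measured 78.4 and 64.5 FPKM in WT and 36.5 and 34.1 FPKM in Zar1/2-null (-0.99 ± 0.15, adjusted p = 0.000465). Slc39a9 stood at 5.68 and 4.33 FPKM in WT and 1.95 and 1.802 FPKM in Zar1/2-null, and Slc39a6 at 57.9 and 55.8 FPKM in WT and 44.2 and 39.9 FPKM in Zar1/2-null (-0.43 ± 0.16, adjusted p = 0.04596). The fall of Slc39a6 was lost with both other scalings (0.02 and 0.16), that of Slc39a10 with median scaling, and that of Slc39a9 held with all 3. Of the 4 SLC30 carriers, a family of zinc exporters, Slc30a4 and Slc30a5 fell, while Slc30a3 had null libraries of 54.5 and 110 FPKM against 115 and 96.4 FPKM in WT (-0.44 ± 0.29, adjusted p = 0.232). The iron transporter Slc11a2 measured 13.8 and 10.4 FPKM in WT and 6.68 and 9.77 FPKM in Zar1/2-null (-0.51 ± 0.21, adjusted p = 0.0688), and Slc41a2, a magnesium transporter, 7.402 and 5.29 FPKM in WT and 2.13 and 2.04 FPKM in Zar1/2-null.

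Of the 12 carriers of the endoplasmic reticulum and Golgi 9 fell at GV with the deposited scaling, against 40.6% of all genes. This was much the same share as the 8 of 11 ion carriers (72.7%). With all 3 scalings 3 of the 9 fell (Slc33a1, Slc35a3 and Slc35f2), against 9.21% of all genes. The 12 were placed in this role by family number, and where each protein sits in the cell was not checked gene by gene. The median log2 difference of the 12 was -0.93 against -0.44 over genes with the same floor. Slc33a1, which brings acetyl-CoA into the endoplasmic reticulum, was close to the bottom of detection in the null, with 4.62 and 3.53 FPKM in WT and 0.191 and 0.219 FPKM in Zar1/2-null (-2.07 ± 0.14, adjusted p = 6e-06). Slc35a3, a UDP-N-acetylglucosamine transporter, measured 8.31 and 6.49 FPKM in WT and 1.82 and 2.29 FPKM in Zar1/2-null (-1.46 ± 0.16, adjusted p = 7.6e-05). The CMP-sialic acid transporter Slc35a1 gave 34.5 and 26.6 FPKM in WT and 15.6 and 21.9 FPKM in Zar1/2-null, and both transporters of the sulfate donor PAPS fell, Slc35b2 from 5.83 and 5.51 to 1.82 and 2.82 FPKM and Slc35b3 from 45.7 and 35.6 to 16.99 and 27.04 FPKM, with the deposited scaling and not with median scaling. The 3 that did not pass were Slc35b1, Slc35b4 and Slc35c2.

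Of the SLC25 carriers 8 of 23 were lower at GV (34.8%), a share near the 40.6% of all genes and the 35.7% of the amino acid carriers, and 2 of them with all 3 scalings. The median of the 23 was -0.28. The 8 were Slc25a11, Slc25a15, Slc25a16, Slc25a20, Slc25a26, Slc25a30, Slc25a32 and Slc25a40. Slc25a40, a relative of Slc25a39, measured 4.46 and 3.43 FPKM in WT and 0.3599 and 0.329 FPKM in Zar1/2-null (-1.87 ± 0.18, adjusted p = 3.1e-05). The ornithine carrier Slc25a15 measured 40.8 and 34.99 FPKM in WT and 15.8 and 16.1 FPKM in Zar1/2-null (-1.19 ± 0.14, adjusted p = 0.000133) and the S-adenosylmethionine carrier Slc25a26 26.04 and 19.95 FPKM in WT and 8.54 and 11.3 FPKM in Zar1/2-null (-1.13 ± 0.18, adjusted p = 0.000721). In contrast, the abundant ADP/ATP carrier Slc25a5 measured 210 and 168 FPKM in WT and 177 and 196 FPKM in Zar1/2-null (-0.01 ± 0.17, adjusted p = 0.962), and was called higher in the null without the ERCC factor (0.44) and with median scaling (0.58). Slc25a4, Slc25a31 and the phosphate carrier Slc25a3 did not pass with the deposited scaling. No test of the difference between roles was made.

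In oocytes labelled MII the members split, 24 (27.3%) rising and 15 (17.05%) falling in Zar1/2-null oocytes. The shares were 21.5% and 10.3% over all genes tested and 28.8% and 14.1% over genes with at least 5 FPKM in WT growing oocytes, and the median log2 difference was 0.12 over the members and 0.06 over all genes. Without the ERCC factor 25 rose and 21 fell, and with median scaling 23 and 23. With all 3 scalings 21 were higher (18.6% of all genes), and the 15 that fell did so with each (10.3% of all genes). All 15 that fell at MII had also fallen at GV with the deposited scaling. Of the other members lower at GV, 26 were not called at MII and 5 rose (Slc44a2, Slc35b3, Slc4a8, Slc35b2 and Slc25a11). Of those not called at GV, 19 rose at MII and 23 were called at neither stage. Without the first Zar1/2-null MII library 9 members were called lower in place of 15.

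**Figure D3:**
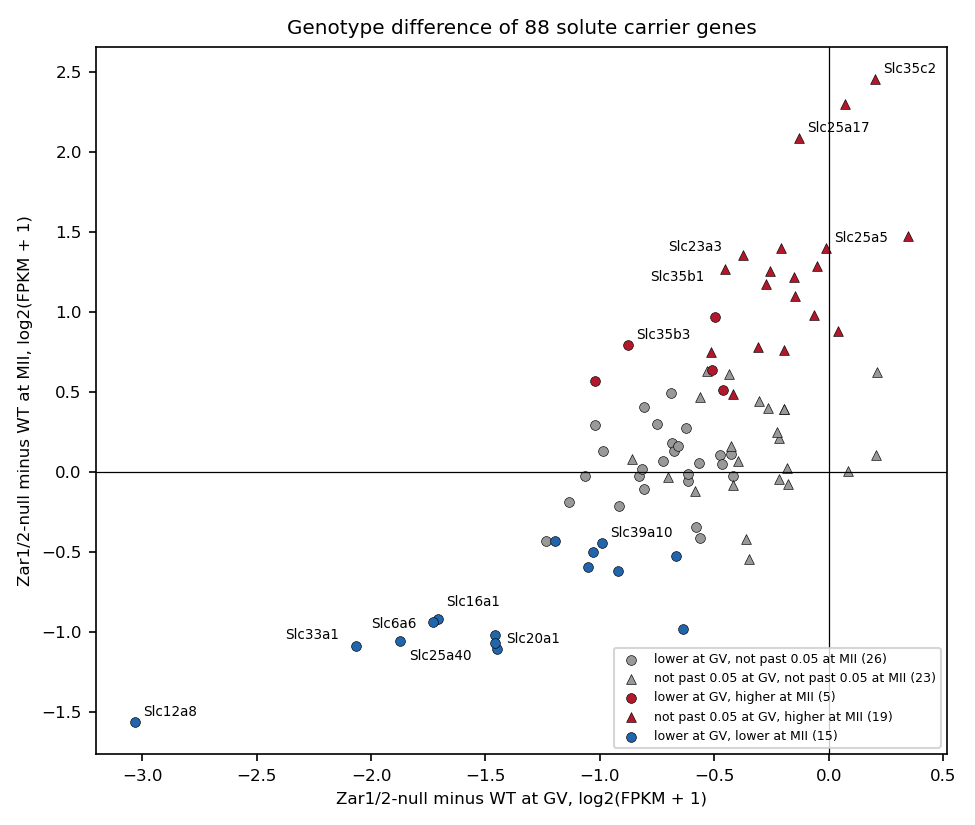
Zar1/2-null minus WT difference (log2(FPKM + 1)) at GV (horizontal) and MII (vertical) for the 88 members, 1 point each, with colour for the call at MII and shape for the call at GV. All 15 blue points (lower at MII) are circles (lower at GV) in the lower left, led by Slc12a8 at -3.03 and -1.56, while Slc35c2 and Slc25a17 stand near the top with over 2 at MII and close to 0 at GV. The horizontal axis moves with the scaling, by which 34 of the GV falls are lost.

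The largest MII excess was that of Slc35c2 (chromosome 2, 165102054 to 165113369), a Golgi protein related to the GDP-fucose transporter, with 0.968 and 1.45 FPKM in WT and 10.3 and 11.8 FPKM in Zar1/2-null oocytes (2.45 ± 0.23, adjusted p = 7.8e-06). Slc25a17 (chromosome 15, 81149351 to 81191195) measured 9.55 and 13.1 FPKM in WT and 57.6 and 44.6 FPKM in Zar1/2-null (2.08 ± 0.24, adjusted p = 4.8e-05). At GV the libraries of the genotypes overlapped in both of these genes. The ratios of means were 9.14 for Slc35c2 and 4.51 for Slc25a17, and Slc23a3, Slc10a3 and the reduced folate carrier Slc19a1 also passed 3-fold. In all 6 members were more than 3-fold higher, against 7.49% of all genes. Slc12a8 and Slc4a7, 2 members, were more than 3-fold lower, against 1.32% of all genes.

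Of the 23 SLC25 carriers 9 rose at MII (8 of them with all 3 scalings) and 4 fell. Over all genes tested 21.5% rose (18.6% with all 3 scalings) and 10.3% fell. The summed level of the 23 was 136 and 140 FPKM in WT and 282 and 241 FPKM in Zar1/2-null libraries. Slc25a5 measured 26.8 and 24.7 FPKM in WT and 78.5 and 61.4 FPKM in Zar1/2-null (1.40 ± 0.17, adjusted p = 7e-05), and the other ADP/ATP carriers did not pass, Slc25a31 with 20.5 and 15.2 FPKM in WT and 27.02 and 21.9 FPKM in Zar1/2-null and Slc25a4 with 4.85 and 6.98 FPKM in WT and 10.2 and 8.81 FPKM in Zar1/2-null. The citrate carrier Slc25a1 gave 4.17 and 7.33 FPKM in WT and 15.7 and 14.4 FPKM in Zar1/2-null (1.29 ± 0.26, adjusted p = 0.00237). The 4 that fell were Slc25a15 (-0.43 ± 0.14, adjusted p = 0.0404), Slc25a16, Slc25a32 and Slc25a40. All 4 were among the 8 that had fallen at GV, and of the 9 that rose only Slc25a11 was, so that the summed level does not describe the single carriers.

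Among carriers of vitamins, nucleosides and lipids 4 of 6 rose at MII, with all 3 scalings (18.6% of all genes). They were Slc23a3 (1.11 and 0.972 FPKM in WT and 5.65 and 3.07 FPKM in Zar1/2-null), Slc44a2, Slc10a3 and Slc19a1 (1.0999 and 1.13 FPKM in WT and 3.93 and 3.92 FPKM in Zar1/2-null). In the endoplasmic reticulum and Golgi 4 of 12 rose (3 of them with all 3 scalings) and 2 fell, Slc33a1 and Slc35a3. Over all genes tested 21.5% rose and 10.3% fell. Slc35b1, which brings ATP into the endoplasmic reticulum, measured 5.15 and 4.25 FPKM in WT and 15.2 and 10.6 FPKM in Zar1/2-null (1.27 ± 0.19, adjusted p = 0.000383). Of the members placed by family with the amino acid carriers, Slc3a2, Slc43a3 and the serotonin transporter Slc6a4 rose and Slc6a6 and Slc7a11 fell. For the cystine exchanger this set the subunits apart: the heavy chain Slc3a2 measured 21.4 and 22.8 FPKM in WT and 41.8 and 41.3 FPKM in Zar1/2-null (0.88 ± 0.16, adjusted p = 0.00115), and the light chain Slc7a11 10.7 and 13.1 FPKM in WT and 7.52 and 8.68 FPKM in Zar1/2-null (-0.50 ± 0.16, adjusted p = 0.0306).

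The ion, metal and carboxylate carriers are given together here, and their counts at MII were small and not tested. Over all genes 10.3% fell and 21.5% rose at MII. Of the 11 ion carriers 3 fell (Slc12a8, Slc4a7 and Slc20a1, all with the 3 scalings) and 1 rose (Slc4a8). Slc12a8 measured 4.63 and 8.37 FPKM in WT and 1.29 and 1.64 FPKM in Zar1/2-null (-1.56 ± 0.23, adjusted p = 0.000256) and Slc20a1 4.69 and 6.53 FPKM in WT and 1.81 and 2.29 FPKM in Zar1/2-null (-1.11 ± 0.16, adjusted p = 0.000315). Of the 12 metal carriers Slc39a9 and Slc39a10 fell and Slc11a2 rose. Slc39a10 gave 38.5 and 37.2 FPKM in WT and 26.3 and 28.7 FPKM in Zar1/2-null (-0.45 ± 0.15, adjusted p = 0.0383) and Slc11a2 0.575 and 1.205 FPKM in WT and 2.19 and 2.08 FPKM in Zar1/2-null (0.75 ± 0.21, adjusted p = 0.0181). Slc16a1 was the only one of the 5 sugar and carboxylate carriers to pass at MII, with 1.44 and 1.56 FPKM in WT and 0.356 and 0.288 FPKM in Zar1/2-null (-0.92 ± 0.13, adjusted p = 0.000184). Slc7a6os, which is not a transporter, fell as well, with 12.6 and 15.003 FPKM in WT and 6.09 and 6.92 FPKM in Zar1/2-null (-0.98 ± 0.20, adjusted p = 0.00267).

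From GV to MII, 86 of 88 members fell in WT oocytes with the deposited scaling (93.4% of all genes tested, 97.8% of those with at least 5 FPKM in WT growing oocytes) and 0 rose (0.104% of all genes, 0.0141% of those with the same floor), whereas with median scaling 43 rose and 20 fell. The median log2 change was -1.78 over the members and -1.28 over all genes, and with median scaling 0.46 and 0.16. The direction for most members thus rests on the spike-in. On this scale the members' median also moved relative to that of all genes, from below it to above it. With all 3 scalings 0 were higher (0.0696% of all genes) and 20 lower (31.8%). The 20 included Slc23a3 (from 68.4 and 47.3 to 1.11 and 0.972 FPKM, -4.83 ± 0.24, adjusted p = 6.4e-09), Slc15a4 (from 19.9 and 18.9 to 0.472 and 0.734 FPKM), Slc35b1 and Slc25a4. The 2 members not called were Slc7a14, a lysosomal protein, with 12.3 and 8.48 FPKM at GV and 9.03 and 7.72 FPKM at MII, and Slc6a15. More than 10-fold falls were seen in 10 members, against 15.7% of all genes and 25.1% of the genes with the same floor, and in 1 without the ERCC factor, 0 with median scaling and 17 with a floor of 0.1 FPKM in place of 1. In 15 members the ratio of GV to MII means was under 2. Among these were the zinc importer Slc39a10, with 38.5 and 37.2 FPKM at MII, and Slc45a3, which with 96.2 and 103 FPKM was the most abundant member in WT MII oocytes.

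In Zar1/2-null oocytes 61 members fell from GV to MII (68.7% of all genes, 76.7% of those with the same floor) and 1 rose, Slc19a1 (0.209%), from 1.696 and 3.41 to 3.93 and 3.92 FPKM, a rise called with all 3 scalings but not with only the libraries of the groups compared, nor without any 1 of 7 of the 8 GV and MII libraries, while with median scaling 18 fell and 43 rose. More than 10-fold falls were seen in 2 members (6.66% of all genes), Slc15a4 and Slc23a3, and in 1, 0 and 5 with the same alternatives. The change differed between genotypes, in a test of the difference itself, in 49 members (33.9% of all genes, 42.3% of those with the same floor), all toward a smaller fall in the null, and in 0 members the other way (0.643% and 0.507%). With median scaling the counts were 11 and 14. Past the test with all 3 scalings were 0 lower (0.522% of all genes) and 11 higher (12.6%), among them Slc25a17, Slc23a3, Slc35b1, Slc35c2, Slc10a3, Slc25a35, Slc35b2, Slc6a4, Slc19a1 and Slc9a3r2. Slc35c2 fell in WT by 2.19 on the log2 scale and in the null went from 8.205 and 13.3 to 10.3 and 11.8 FPKM, a difference of 2.25 ± 0.32, adjusted p = 0.000364. That of Slc25a17 was 2.22 ± 0.34, adjusted p = 0.000617. Since each difference is made of the same 8 libraries as the GV and MII comparisons, it is not a further piece of evidence beside them. Without the first WT GV library the count was 30 in place of 49.

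**Figure D4:**
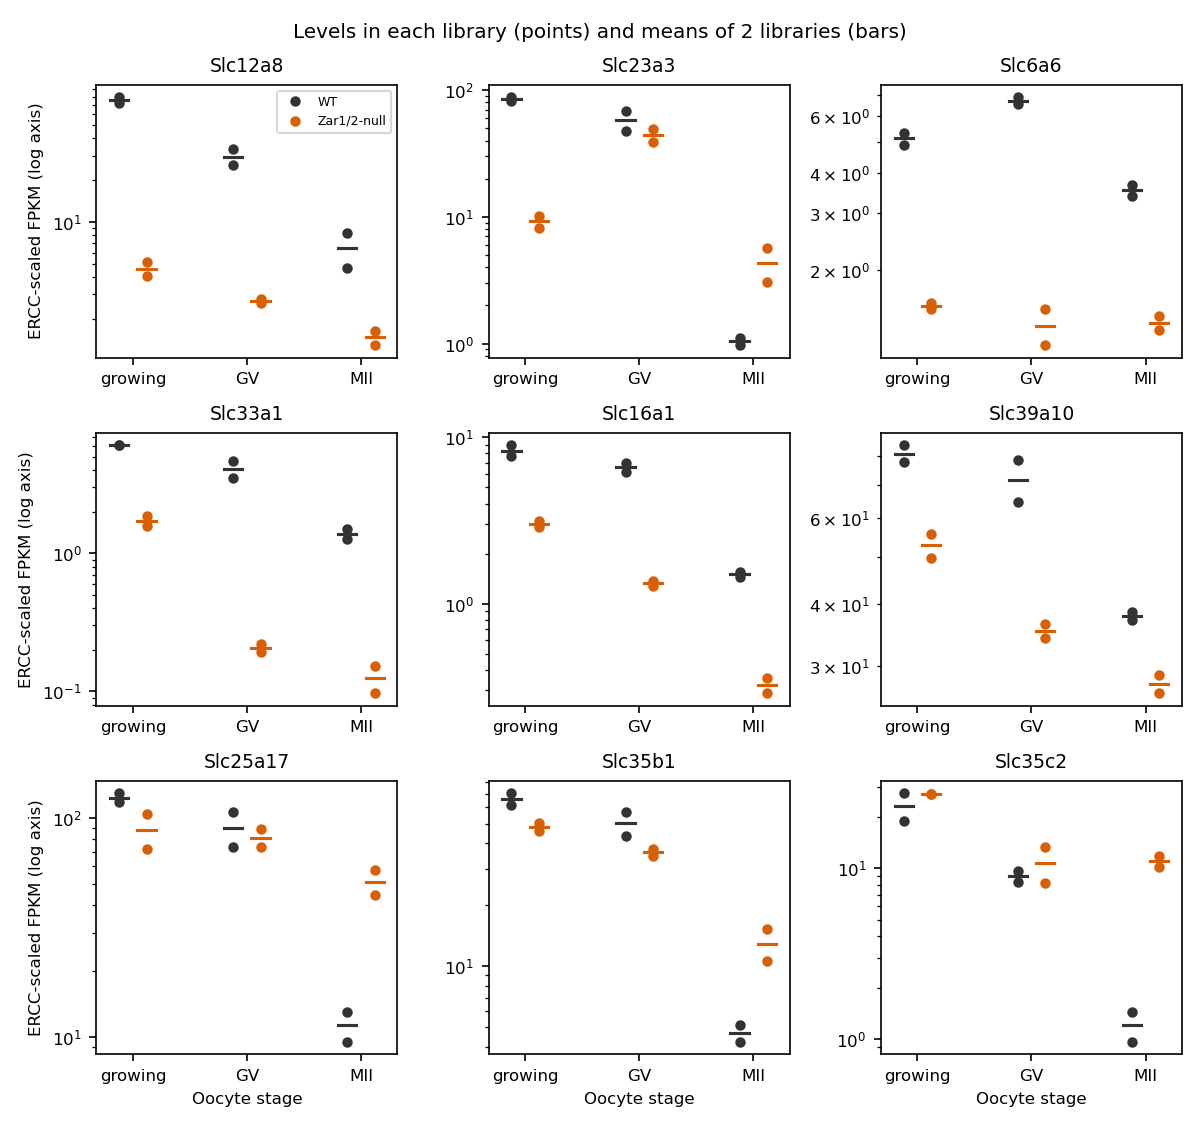
ERCC-scaled FPKM (log axis, a separate scale in each panel) of 9 members in growing, GV and MII oocytes, with a point for each library and a bar for the mean of 2, WT in grey and Zar1/2-null in orange. In Slc12a8, Slc6a6, Slc33a1, Slc16a1 and Slc39a10 the orange points lie below the grey ones at all stages, while Slc23a3 (from 84.8 against 9.22 to 1.04 against 4.36 FPKM), Slc25a17 and Slc35b1 change order between growing and MII, with the null lower in growing and higher in MII oocytes. Slc35c2 overlaps in growing and GV oocytes and is higher in the null at MII.

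Genes that work with these carriers were read from a list of 30, of which 28 were in the table and 25 were tested. With the deposited scaling 12 of the 25 rose and 1 fell in the null at MII (21.5% and 10.3% of all genes tested), and at GV 1 rose and 4 fell (2.83% and 40.6%). Of the 11 proteins that import SLC25 carriers into mitochondria 6 rose at MII: the small intermembrane chaperone Timm10 measured 9.43 and 7.01 FPKM in WT and 63.3 and 50.5 FPKM in Zar1/2-null (2.65 ± 0.17, adjusted p = 3.3e-07), and Timm9 5.68 and 4.87 FPKM in WT and 26.1 and 14.8 FPKM in Zar1/2-null (1.73 ± 0.23, adjusted p = 0.000123). The 2 chaperones of Slc16a1 parted at MII, Bsg with 3.23 and 3.83 FPKM in WT and 15.7 and 14.9 FPKM in Zar1/2-null (1.85 ± 0.18, adjusted p = 1.3e-05) and Emb with 3.39 and 3.07 FPKM in WT and 0.495 and 0.708 FPKM in Zar1/2-null (-1.40 ± 0.15, adjusted p = 2.2e-05). Atp1b3, a beta subunit of the sodium pump, which provides the gradient for many carriers, stood at 161 and 174 FPKM in WT growing oocytes. It rose in the null at MII with the deposited scaling (0.56 ± 0.15, adjusted p = 0.0116) and did not pass the limma test with median scaling (0.20, adjusted p = 0.251). Gja4, the oocyte's gap junction protein, measured 6.83 and 7.95 FPKM in WT and 31.1 and 30.2 FPKM in Zar1/2-null at MII (1.92 ± 0.18, adjusted p = 1e-05). Of the 267 solute carrier genes under 5 FPKM, 81 were tested, of which 34 fell and 1 rose at GV, near the 40.6% and 2.83% of all genes, and 3 fell and 3 rose at MII, below the 10.3% and 21.5%. These genes were chosen for a low level, and changes near 1 FPKM are understated on this scale, so that the shares are not like for like.

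All 88 members were found in the mm9 annotation, on 19 chromosomes, with a median longest coding transcript of 2997 bases against 2657 bases over 6796 genes with the same floor. The strand of a read was not kept, and 18 members share exon bases with another gene, among them Slc33a1, Slc20a1, Slc35a3, Slc39a9 and Slc25a35 of those called with all 3 scalings, so that their values can include reads of the neighbour. The pair Slc6a20a (chromosome 9, 123545240 to 123588003) and Slc6a20b (chromosome 9, 123502938 to 123541683) are near copies, with 23.5% and 20.1% of the 50-base windows of their transcripts found in another coding transcript, and the split of reads between them is uncertain. No other member shared more than 10% of its windows. No member was listed at 0 in any library.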

How the data were processed

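RNA-seq libraries were made by Smart-seq2 with ERCC spike-in RNA. Per the labels and the methods, the authors used 50-base reads, TopHat 2.1.1 on mm9, only uniquely placed reads and Cufflinks 2.2.1, and deposited FPKM values multiplied by the ERCC share of the WT growing library of the same replicate over that of each library. The factors, recovered from the table, ranged from 0.225 (WT MII) to 1 (WT growing). The deposited table holds no counts, so the depth behind a value is unknown and no counting interval is given. A 0 may stand for an estimate that failed.

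The 11502 genes that reached 1 FPKM in any library were tested. On log2(FPKM + 1), limma 3.58.1 (R 4.3.3) took the 12 libraries together, each group having its own term, and an intensity trend. Standard errors are those of limma, p-values are two-sided and Benjamini-Hochberg adjusted over all genes tested, and 0.05 was the threshold. Log2 changes of genes near 1 FPKM are understated on this scale. Ratios of means had group means under 1 FPKM set to 1, where the methods set single values under 1 FPKM to 1, used the 3-fold and 10-fold limits of the study, and carry no test. The alternatives were no ERCC factor, equal medians, other pseudocounts, floors and filters, a replicate block, only the groups compared, no trend, and each library left out. The fit was tested on simulated data. Results for some single genes are not reported here, and counts include them.

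The members and gene lists were chosen with earlier results of these data known. Named in full are the 10 highest members, listed carriers of known role, and for each comparison the 5 members with the largest change each way among those past the test with a mean of at least 10 FPKM and no overlap, the growing comparison by ratio alone. Other genes were named after their values were seen, mainly those called with all 3 scalings. Nothing says that the libraries of a group came from separate females, so p-values measure only the spread between these libraries. For a single gene an exact permutation test of 2 against 2 libraries could not go below p = 0.333 and was not used. Gene models, overlaps and shared 50-base windows came from the GENCODE annotation of mm9.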

Additional observations from a re-analysis of the deposited data

Results flagged for a closer look

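The change from GV to MII differed between genotypes, by limma's test of the difference, in 49 members, all in the direction of a higher null. Among the genes described above the differences on the log2 scale were 2.25 for Slc35c2, 2.22 for Slc25a17, 1.72 for Slc23a3, 1.72 for Slc35b1 and 1.67 for Slc35b3. They were 1.47 for Slc12a8, 1.46 for Slc44a2, 1.41 for Slc25a5, 1.34 for Slc25a1, 1.26 for Slc11a2, 1.24 for Slc25a39 and 1.18 for Slc6a20a. The smaller ones were 0.95 for Slc25a26, 0.84 for Slc3a2, 0.81 for Slc45a3, 0.79 for Slc6a6, 0.79 for Slc16a1, 0.76 for Slc25a15 and 0.70 for Slc26a2. In Slc12a8, Slc6a6, Slc16a1 and Slc25a15 the null stayed below WT at both stages, and the difference says that the gap was narrower on this scale at MII.

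With the deposited scaling, in 6 members every null library lay above every WT library in growing oocytes and below every WT library in GV oocytes. The GV differences were -0.43 for Slc6a9, -0.31 for Slc43a3, -0.81 for Slc26a2, -0.47 for Slc35e4, -0.56 for Slc12a2 and -0.42 for Slc22a23. Slc6a9, Slc43a3 and Slc22a23 did not pass the test at GV. Slc26a2, Slc35e4 and Slc12a2 passed with the deposited scaling but not with all 3 scalings. Without the ERCC factor and with median scaling, the GV difference was 0.01 and 0.14 for Slc6a9 and 0.12 and 0.25 for Slc43a3. For Slc22a23 it was -0.06 and 0.06. The change of direction was not tested, since the WT growing libraries chose the members.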

How the results depend on the processing

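The scaling of the libraries mattered most. Without the ERCC factor, members called at GV were 5 higher and 17 lower, in the WT maturation 17 higher and 41 lower, in the null maturation 26 and 32, and for the difference between genotypes 15 and 3. With median scaling the same counts were 8 and 12, 43 and 20, 43 and 18, and 11 and 14, and 23 members were lower at MII. Members over 3-fold lower at GV were 5 with either, and at MII 8 with either. Members over 10-fold lower from GV to MII were 1 and 0 in WT and 1 and 0 in the null. With a floor of 0.1 FPKM, 10 members were over 3-fold higher and 5 lower at MII, and 17 in WT and 5 in the null over 10-fold lower. With only the libraries of the groups compared, 29 members were lower at GV, and the 1 rise of the null maturation was 0, as it was with all genes above 0 and with a mean of at least 5 FPKM. Setting single values rather than means under 1 FPKM to 1, an alternative chosen after seeing the data, left all 8 counts past 3-fold or 10-fold as they were. The cause of the changes was not tested.

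Some single genes turned direction. At GV Slc25a5 was 0.44 and 0.58, Slc39a6 0.0174 and 0.16 without the ERCC factor and with median scaling, and Slc44a2 0.0732 with median scaling. The difference between genotypes with median scaling was -0.15 for Slc45a3, -0.23 for Slc6a6, -0.0829 for Slc3a2, -0.71 for Slc16a1 (-0.28 without the ERCC factor), -0.78 for Slc20a1, -0.20 for Slc25a15 and -0.18 for Slc26a2. For the named genes, 2023 of 2345 values under an alternative kept direction and side of the threshold.

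Leaving out 1 library at a time, members lower at GV ranged from 28 (without WT GV replicate 1) to 47 and higher from 0 to 2 (without Zar1/2-null GV replicate 1). At MII 17 to 27 were higher and 9 (without Zar1/2-null MII replicate 1) to 18 lower. In the WT maturation 84 to 87 were lower, in the null 49 to 62 lower and 0 to 4 higher (4 without Zar1/2-null GV replicate 2, and 0 without any 1 of the other WT or null libraries of GV and MII), and for the difference 30 (without WT GV replicate 1) to 51. Members over 3-fold lower ranged from 8 to 9 in growing oocytes, from 8 to 10 at GV and from 1 (without WT MII replicate 2) to 4 (without WT MII replicate 1) at MII, and those over 3-fold higher at MII from 5 to 9. Members over 10-fold lower from GV to MII ranged from 7 to 13 in WT and from 1 (without Zar1/2-null MII replicate 2) to 4 (without Zar1/2-null GV replicate 1) in the null.

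Replicates of a number share that number and the WT growing library to which their ERCC factors refer. The correlations of their deviations ranged from -0.12 to 0.16 and do not pair them. With the replicate block 49 members were lower at GV, 26 higher and 15 lower at MII, and 50 differed in maturation. The correlation of WT and null GV libraries was -0.12, and with the crossed pairing, chosen after seeing the data, 53 were lower at GV.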
